A study of Mus musculus with 12 samples.

Results

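The genes described here are the matrix proteases and their inhibitors of the mouse cochlea. Members were the genes whose symbol on the array was Mmp, Adamts or Timp followed by a number, and control probes were left out. The rule found 44 of the 19505 genes measured, with 605 of 165865 probes. There were 21 matrix metalloproteinases (MMP), 19 ADAMTS proteases and 4 tissue inhibitors of metalloproteinases (TIMP). The rule used symbols alone and no measured value, but earlier results of these data were known when it was set.

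Cochleae of male C57BL/6 mice, 6 weeks old, were dissected into an apical, a middle and a basal turn to compare gene expression along the tonotopic axis. Each turn was measured on 4 arrays, 12 in all, and each array received 25 ng of total RNA labelled with Cy3. All mice were untreated apart from the anesthesia before decapitation (ketamine and pentobarbital), and every sample was dissected in RNAlater. The otic capsule was removed, and the pieces held spiral ganglion, organ of Corti and lateral wall. The study named 4 mice and described the 4 arrays of a turn as independent mouse samples, so arrays of different turns share animals. The labels did not tie the turns of an animal to each other, and the main fit did not pair them. The 4 arrays of each turn lay on a slide of their own (3 slides), so slide and turn cannot be told apart.

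MMPs and ADAMTS proteases are zinc enzymes that cut collagens, proteoglycans and other proteins outside the cell. They are made as inactive proenzymes. Most MMPs are secreted, and the membrane-bound MMPs stay on the cell surface. ADAMTS proteases carry thrombospondin repeats and include the aggrecanases, which cut large proteoglycans, and the procollagen N-proteinases, which trim new collagen. TIMPs block the zinc site, and the balance of proteases and inhibitors sets how fast matrix is turned over. In the cochlea, matrix forms the basilar membrane, the spiral ligament and the bony walls.

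The array carried 60-base exon probes, so a few of them lay on the coding sequence of the active site itself. In 8 of 39 protease genes searched, a probe held the codons of the zinc-binding motif H-E-x-x-H, in which the histidines hold the metal. In 2 of 4 TIMP genes a probe held the codons of the C-x-C stretch at the start of the mature inhibitor, which sits in the enzyme's active site. Some of these probes are printed here because they lie on the part of the message that makes these proteins proteases or inhibitors. They are written in the sense direction with positions in mouse build mm9, and capitals mark the motif codons. The motif lies at the same place in each of the ADAMTS probes.
Adamts6, chr13:105142884-105142943, plus strand: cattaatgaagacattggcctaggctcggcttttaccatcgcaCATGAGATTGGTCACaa
Adamts17, chr7:74113741-74113800, plus strand: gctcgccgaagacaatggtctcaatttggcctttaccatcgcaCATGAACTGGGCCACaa
Adamts12, chr15:11171241-11171300, plus strand: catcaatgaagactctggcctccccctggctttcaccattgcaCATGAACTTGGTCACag
Adamts10, chr17:33675059-33675118, plus strand: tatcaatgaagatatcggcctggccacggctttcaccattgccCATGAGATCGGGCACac
Mmp25, chr17:23769815-23769874, minus strand: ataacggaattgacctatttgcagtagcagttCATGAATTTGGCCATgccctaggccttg
Timp2, chr11:118216275-118216334, minus strand: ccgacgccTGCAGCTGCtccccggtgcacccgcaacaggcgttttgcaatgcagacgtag
The 4 ADAMTS stretches were alike. Over the 58 bases that end with the motif, Adamts6 shared 46 bases with Adamts10, 46 with Adamts12 and 40 with Adamts17.

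Signals are given as Agilent processed signal after scaling to the 75th percentile of every array, in the scanner's arbitrary units, and differences are on the log2 scale with their standard error (SE, n = 4 arrays per turn). A level can be compared between turns for a gene but not between genes. A gene was called between turns when its adjusted p from limma was under 0.05 after Benjamini-Hochberg adjustment over all 19505 genes. The study's own rule asked for an F test over the 3 turns and a 2-fold difference. The members were weakly detected as a class. The share of their probes well above background on all 4 arrays was 47.6% in the apex, 39.2% in the middle, then 40.5% in the base, against 78.2%, 75% and 75.9% of all probes. Every member but Mmp10 had such a probe in some turn, and for 9 members every probe was above background in all 3 turns (Mmp2, Mmp11, Mmp14, Mmp15, Adamts1, Adamts5, Timp1, Timp2 and Timp3).

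Between the apical and basal turns, 18 of the 44 members differed, beside 39.2% of all genes. The number was near the background, and the direction was mostly toward the apex. The 14 members greater in the apex were Mmp2, Mmp16, Mmp23, Mmp24, Adamts1, Adamts2, Adamts3, Adamts5, Adamts6, Adamts9, Adamts17, Adamts19, Adamts20 and Timp3. That was 31.8% of members, beside 17.6% of all genes. Mmp12, Mmp19, Mmp25 and Timp2 were greater in the base, 9.09% of members beside 21.6% of all genes. The families differed in their counts. Of the ADAMTS genes, 9 of 19 were greater in the apex and 0 in the base in limma, where 0 were greater in the base also by the unadjusted p, beside 25.1% of all genes. Among those toward the apex, Adamts3, Adamts9 and Adamts19 had few probes above background, as given below. Of the MMP genes, 4 of 21 were greater in the apex and 3 in the base, and the TIMPs gave 1 and 1. The median difference, apex minus base, was 0.08 over the members and -0.04 over all genes. By the study's rule 4 members passed (Mmp16, Mmp23, Adamts20 and Adamts6), all greater in the apex, beside 4.39% of all genes in either direction, 3.27% toward the apex and 1.12% toward the base. The apical and basal arrays did not overlap for 15 members higher in the apex, beside 16.9% of all genes, and for 4 higher in the base, beside 21.4%. The member without overlap that did not pass in limma was Mmp28 (0.16 ± 0.08).

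**Figure D1:**
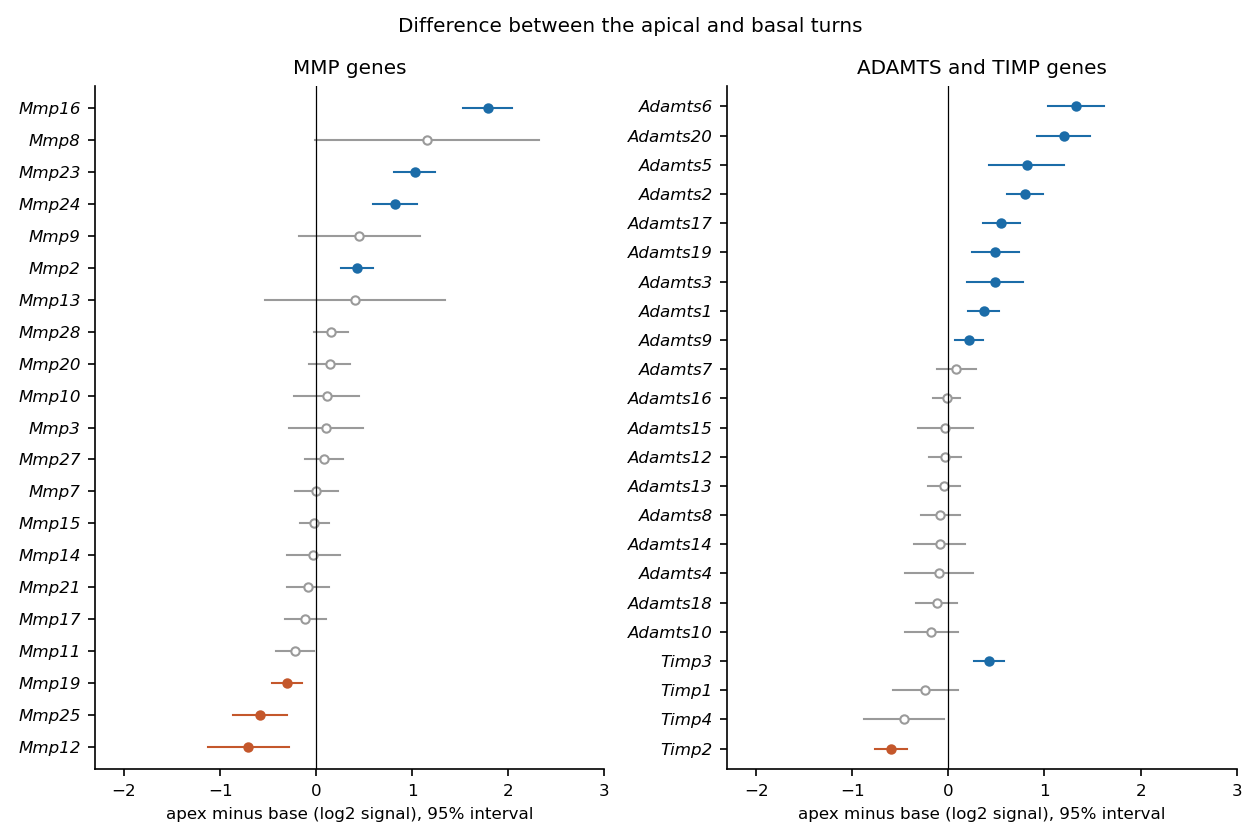
Difference of the log2 signal, apical minus basal turn, for each of the 44 members, with MMP genes on the left and ADAMTS and TIMP genes on the right. Lines are unadjusted 95% intervals from limma (4 arrays per turn). Filled points passed the test over all genes (blue greater in the apex, orange greater in the base) and open grey points did not. The 9 filled ADAMTS genes all lie to the right of 0.

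The direction of small differences depended on the scaling. With each array scaled to its median, 13 members were greater in the apex and 6 in the base, beside 11.6% and 32.2% of all genes, and with quantile normalization 12 and 10, beside 14.9% and 25.6%. With scaling to the spike-in probes the median of all genes moved to -0.45, 4.7% of all genes were greater in the apex and 68.7% in the base, and the members gave 6 and 24. All differences below are therefore relative to the bulk of genes on the array.

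The turns also differed in cell markers. All 6 hair cell markers and all 6 spiral ganglion neuron markers were greater in the apex than the base, as were all 5 Schwann cell markers, and all 6 fibrocyte markers of the spiral ligament were greater in the base. The summed signal of the hair cell markers was 21950 to 25820 in the apex, 18130 to 24420 in the middle, then 4801 to 12960 in the base. Ocm and Pvalb made up most of it, with mean signals of 13960 and 9740 in the apex and 3775 and 4504 in the base. The summed signal of the fibrocyte markers was 278000 to 302300, 374600 to 423300 and 543700 to 604900. Neuron markers summed to 26710 to 35060 in the apex, 24030 to 43080 in the middle, then 4974 to 22300 in the base, and Schwann cell markers to 12760 to 14420, 13680 to 16430 and 6361 to 12250. No marker of these lists lacked a probe well above background. Fewer cells of a type and less RNA per cell cannot be told apart in such samples, and the part of cell makeup in the differences of the proteases was not tested.

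The membrane-bound MMPs held the largest difference of any member. Of the 7, Mmp16, Mmp23 and Mmp24 were greater in the apex than the base, Mmp25 was greater in the base, and Mmp14, Mmp15 and Mmp17 did not pass. Mmp16 (MT3-MMP), which can activate the gelatinase Mmp2, gave apical signals of 53.5, 41.0, 46.8 and 38.0. Its middle signals were 22.5, 25.0, 26.3 and 25.3. Its basal signals were 12.2, 11.2, 14.9 and 13.8. The turns did not overlap, and the middle lay between the others. The difference was 1.78 ± 0.12 between apex and base (3.44-fold, adjusted p = 1.6e-06), 0.85 ± 0.12 between apex and middle (adjusted p = 0.0023) and 0.94 ± 0.12 between middle and base (adjusted p = 0.00043). Only 1 of its 10 probes was well above background on any basal array. The basal average therefore rests mostly on probes at the floor, and differences to the base are not exact sizes.

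Mmp16 was measured by 10 probes on chromosome 4 (17780940 to 18043679, mm9), and 8 of them passed between apex and base. For none of the 8 was any basal array well above background, so their differences are not exact sizes. For 5 of them all 4 apical arrays were well above background, and a bound was taken. There the apical mean was set against, on each basal array, the higher of the probe's own signal and the dimmest signal well above background, and this gave at least 3.43-fold to at least 4.45-fold. Probes 8 and 9, counted from the 5′ end, differed by 0.24 ± 0.19 and 0.23 ± 0.12 and did not pass. Probe 8 read 6.46 to 7.61 in all turns, and probe 9 read 132 to 155. The sequences of probe 6, which passed with apical signals of 34.6 to 59.7 (at least 3.43-fold above the base, adjusted p = 0.00039), and of probe 9 are given without capitals, since no part of them was singled out.
Mmp16 probe 6, chr4:17981666-17981725, plus strand: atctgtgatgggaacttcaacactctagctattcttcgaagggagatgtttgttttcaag
Mmp16 probe 9, chr4:18039155-18039214, plus strand: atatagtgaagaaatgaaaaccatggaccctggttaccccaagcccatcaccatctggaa
Both hold a reading frame without a stop codon. Their share of G and C bases was 40.0% and 45.0%.

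Mmp23 is an unusual member anchored by its N terminus. Its signals were 128, 128, 114 and 110 in the apex. They were 61.8, 58.8, 71.3 and 50.3 in the middle and 55.0, 60.1, 62.7 and 57.9 in the base. The apex stood above both other turns, and the middle and base overlapped. The difference was 1.02 ± 0.10 to the base (2.03-fold, adjusted p = 2.2e-05) and 0.99 ± 0.10 to the middle (adjusted p = 0.00034), while middle minus base was 0.03 ± 0.10 (95% interval -0.19 to 0.25). The 8 probes of Mmp23 were not alike. The 4 nearest the 5′ end differed by 0.29 to 0.74 between apex and base, and the 4 nearest the 3′ end by 1.36 to 1.73.

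Mmp24 (MT5-MMP), known from the nervous system, followed another course. It gave 57.2, 60.2, 59.8 and 66.3 in the apex. It gave 56.9, 59.1, 57.5 and 49.9 in the middle and 36.4, 27.8, 39.9 and 35.1 in the base. Here the base stood below both other turns, and apex and middle overlapped. The difference between apex and base was 0.82 ± 0.10 (adjusted p = 0.00013) and that between middle and base 0.69 ± 0.10 (adjusted p = 0.0013). Of its 9 probes, 4 passed between apex and base. Probe 5, detected on all arrays, differed by 1.28, and probe 8, detected on 1 basal array, by 1.402. At probes 2 and 4 no basal array was well above background, and for probe 4 the apex was at least 3.06-fold above the base. Probes 6, 7 and 9 differed by 0.12 to 0.21 and did not pass.

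Mmp25 (MT6-MMP), a membrane-bound protease first described in leukocytes, was the only member that passed between apex and middle in the direction of the middle. Its apical signals were 23.4, 24.0, 25.2 and 28.5. Its middle signals were 51.1, 52.3, 50.6 and 47.1, and its basal signals were 32.3, 50.9, 33.2 and 37.0. The apex was lowest with no overlap, and basal replicate 2 lay within the middle range. The middle was 1.99-fold above the apex (-0.99 ± 0.13, adjusted p = 0.0015). With only detected probes that difference was -0.60 (adjusted p = 0.00014). Middle over base was 0.41 ± 0.13 (adjusted p = 0.041), and this call was lost in 10 of the 12 fits that left out an array. At the Mmp25 probe over the zinc motif, printed above, no array was well above background.

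The other membrane-bound MMPs did not pass. Mmp14 (MT1-MMP), the main activator of Mmp2, gave 528 to 742 in the apex, 580 to 706 in the middle, then 571 to 795 in the base. Its difference between apex and base was -0.03 ± 0.13 (95% interval -0.31 to 0.25, adjusted p = 0.88). Mmp15 and Mmp17 differed by -0.02 ± 0.07 and -0.11 ± 0.10.

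**Figure D2:**
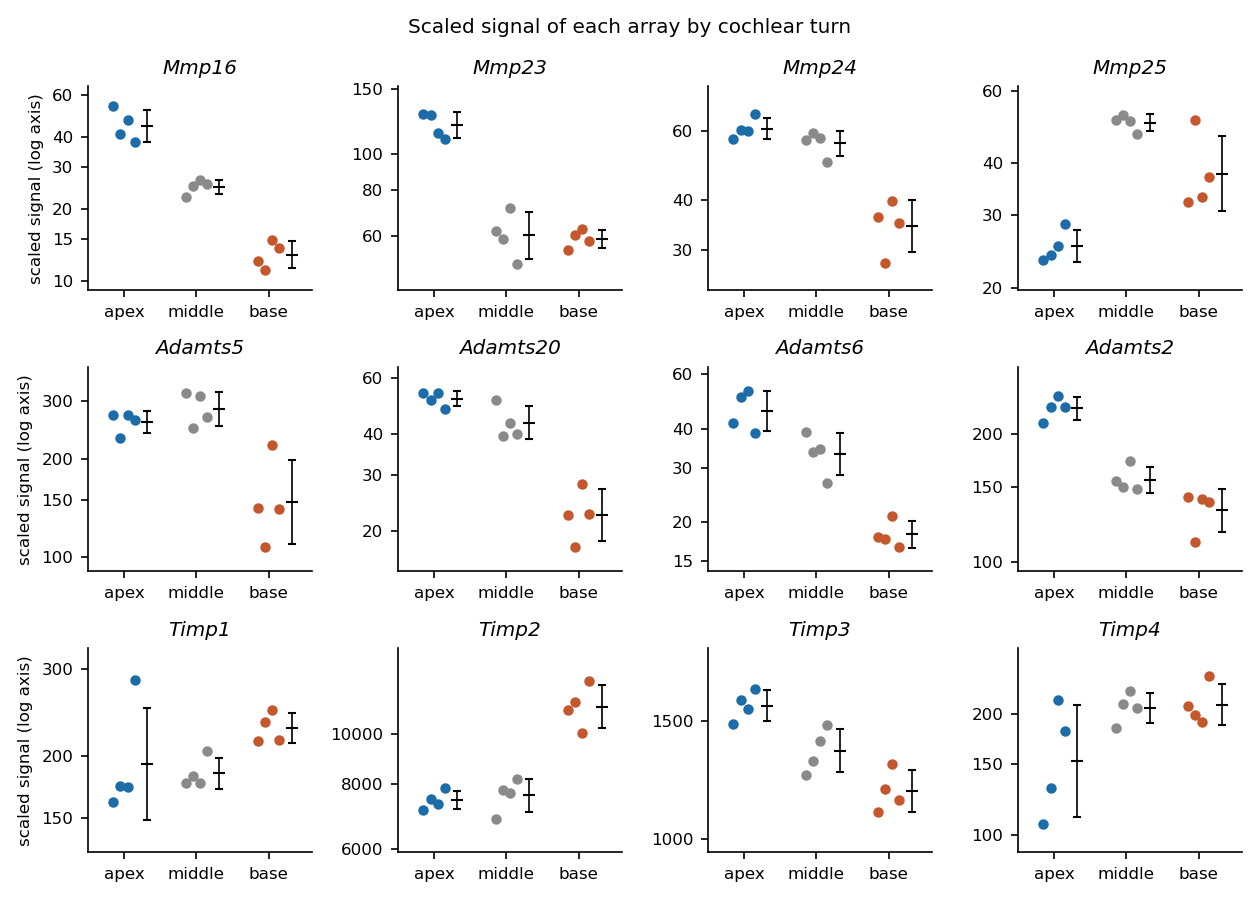
Scaled signal of each array (points, log axis, arbitrary units) for 12 members in the apical, middle and basal turns, with the mean and SD of the 4 arrays on the log scale in black. Mmp16 steps down from apex to base, Mmp23 and Adamts2 stand apart in the apex, and Adamts5, Adamts20 and Mmp24 are lower in the base. Timp2 is higher in the base.

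Among the secreted MMPs few members differed, and most read near background. The gelatinase Mmp2, which cuts denatured collagen and basement membrane collagen, was greater in the apex (750 to 897) than in the middle (552 to 652) and the base (592 to 640). The apex did not overlap the other turns. It was 1.34-fold above the base (0.42 ± 0.07, adjusted p = 0.001) and 1.35-fold above the middle (adjusted p = 0.0057), and 12 of its 13 probes passed between apex and base. With scaling to the spike-in probes the Mmp2 difference between apex and base was 0.01 (adjusted p = 0.96).

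Mmp12, the macrophage elastase, was greater in the base. Its apical signals were 12.02, 11.6, 9.81 and 11.1. Its middle signals were 12.7, 12.9, 14.4 and 13.8 and its basal signals 29.1, 13.3, 15.7 and 17.7. All basal arrays lay above all apical arrays, with basal replicate 1 far above the rest. The base was 1.63-fold above the apex (-0.71 ± 0.19, adjusted p = 0.012). Per turn, only 1 or 2 of its 10 probes were detected throughout. The macrophage markers moved the same way: 5 of 6 were greater in the base, and their summed signal was 1174 to 1560 in the apex, 1408 to 1503 in the middle, then 1645 to 2026 in the base. Their part in the Mmp12 difference was not tested. Mmp19 was 1.24-fold greater in the base (adjusted p = 0.0053). Per turn, 2 or 3 of its 9 probes were detected throughout, and 1 passed between apex and base. The middle was above the base for Mmp20, the protease of enamel (adjusted p = 0.031), and for Mmp27 (adjusted p = 0.039), but both averages rest mostly on probes at the floor. Only 2 of 10 Mmp20 probes were detected in every turn, and these differed by 0.21 and 0.04 between middle and base without passing. In each turn, 2 of 9 Mmp27 probes were well above background on any array. The brightest, probe 8, gave mean signals of 181 in the apex, 213 in the middle, then 100 in the base. No Mmp27 probe passed between middle and base. Over all 23567 probes that were above background on no array, middle minus base had a median of 0.21 and apex minus middle one of -0.25. No exact fold is therefore given for either gene.

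The remaining gelatinase and the collagenases did not pass, and the same array held the highest value of each. Mmp9 (gelatinase B) gave 39.6, 45.0, 33.2 and 89.7 in the apex, 34.9 to 48.1 in the middle, then 28.1 to 52.0 in the base. Mmp8, the collagenase of neutrophils, gave 11.9, 24.0, 7.20 and 56.6 in the apex, 6.68 to 17.0 in the middle, then 6.58 to 10.4 in the base. Mmp13, the collagenase of bone and cartilage, gave 7.27, 9.97, 8.76 and 35.8 in the apex, 7.68 to 10.8 in the middle, then 6.94 to 14.1 in the base. In all 3 genes apical replicate 4 was the highest of the 12 arrays. The differences between apex and base were 0.45 ± 0.29 for Mmp9 (adjusted p = 0.26), 1.15 ± 0.53 for Mmp8 (adjusted p = 0.11) and 0.40 ± 0.43 for Mmp13 (adjusted p = 0.52). Mmp8 passed when apical replicate 3, its lowest apical array, was left out (1.61, adjusted p = 0.022). Mmp3 (stromelysin 1) read near background and did not pass (0.10 ± 0.18), and no probe of Mmp10 was well above background on all 4 arrays of any turn.

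The same array was high for marrow and bone genes. The summed signal of 8 neutrophil and marrow markers was 4629, 16030, 959 and 36270 on the 4 apical arrays, 784 to 8539 in the middle, then 1103 to 2058 in the base. S100a8, carried in quantity by neutrophils, gave 1407, 4906, 202 and 11770 in the apex. Only Ltf of these 8 passed between apex and base. Ibsp, a bone matrix protein, gave 57.3, 312, 90.1 and 1836 in the apex. The 8 bone markers summed to 1513, 2110, 1743 and 5540 in the apex, 1852 to 2070 in the middle, then 2624 to 3342 in the base. Of these 8, Runx2 passed toward the apex (0.34 ± 0.09, adjusted p = 0.0093) and Dmp1 toward the base (-1.09 ± 0.15, adjusted p = 0.00019). Dmp1 gave 1124 on apical replicate 4 and 1608 to 1746 in the base. No marker of the lists lacked a detected probe. The osteoclast markers, 4 of 6 measured, summed to 482, 530, 615 and 1163 in the apex, 609 to 832 in the middle, then 730 to 965 in the base. Of these, Acp5 gave 54.7, 61.8, 74.8 and 373 in the apex. The other markers did not stand out on apical replicate 4 in this way. There Ctsk gave 695, below its highest basal array (738). Oscar gave 63.2, 71.6, 80.7 and 81.0 in the apex, and Calcr 15.75, 14.47, 14.45 and 14.29. The part of these cells in the Mmp8, Mmp9 and Mmp13 values was not tested.

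**Figure D3:**
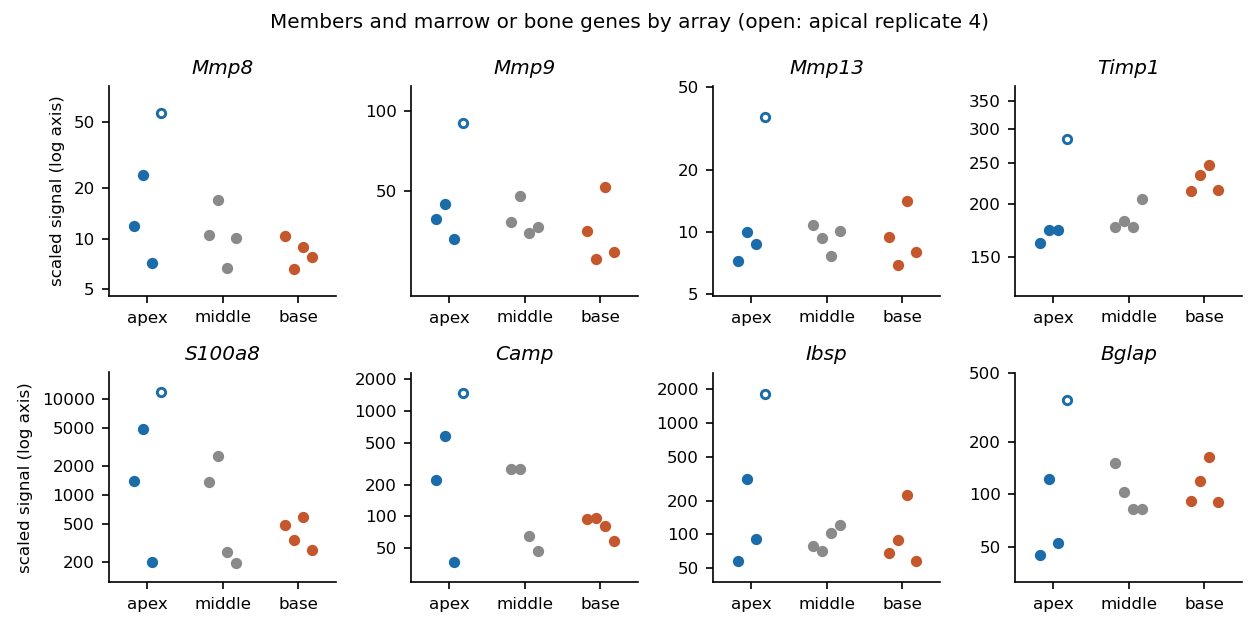
Scaled signal of each array (points, log axis, arbitrary units) by turn for Mmp8, Mmp9, Mmp13 and Timp1, above, and for the neutrophil genes S100a8 and Camp and the bone genes Ibsp and Bglap, below. The open point is apical replicate 4, which is the highest of the 12 arrays in every panel.

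The ADAMTS proteases held most of the differences toward the apex. Of the 7 proteoglycanases, 4 were greater in the apex than the base (Adamts1, Adamts5, Adamts9 and Adamts20) and 3 did not pass (Adamts4, Adamts8 and Adamts15). Their median difference was 0.22, beside -0.04 for all genes. Adamts5, the main aggrecanase of mouse cartilage, gave 273, 232, 272 and 262 in the apex. It gave 319, 248, 311 and 269 in the middle and 142, 108, 220 and 141 in the base. Apex and middle overlapped, and the base lay below both, with basal replicate 3 nearest to them. Middle over base was 0.95 ± 0.18 (1.93-fold, adjusted p = 0.0048) and apex over base 0.82 ± 0.18 (1.76-fold, adjusted p = 0.0038). Its 8 probes, on chromosome 16, all passed between apex and base.

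Adamts20, known for its role in melanoblast survival in the skin, gave 53.6, 51.0, 54.0 and 48.0 in the apex. It gave 51.4, 39.6, 43.5 and 40.3 in the middle and 22.5, 17.9, 28.0 and 22.7 in the base. Again the base lay below both other turns without overlap. Apex over base was 1.20 ± 0.12 (2.30-fold, adjusted p = 3.7e-05) and middle over base 0.95 ± 0.12 (adjusted p = 0.00062). Of its 38 probes on chromosome 15 (94100594 to 94234489), 10 were well above background on all 4 basal arrays and 20 on any. The differences to the base therefore include probes at the floor and are not exact sizes. Of the 38 probes, 30 passed between apex and base. Of the 8 that did not, probes 1, 13, 23 and 24 differed by -0.10 to 0.04 and probes 10, 20, 21 and 34 by 0.64 to 1.11 toward the apex. Probes 12 and 13 are neighbours and read differently. Probe 12 gave mean signals of 43.5 in the apex, 32.3 in the middle, then 7.86 in the base, where no array was well above background, so that the apex was at least 3.39-fold above the base (adjusted p = 1.4e-05). Probe 13 gave 158, 168 and 156 (0.01 ± 0.09). Both are shown without capitals.
Adamts20 probe 12, chr15:94176410-94176469, minus strand: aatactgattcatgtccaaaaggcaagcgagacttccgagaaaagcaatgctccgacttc
Adamts20 probe 13, chr15:94176119-94176178, minus strand: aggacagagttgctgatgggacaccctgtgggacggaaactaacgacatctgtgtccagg
The share of G and C bases was 45.0% in probe 12 and 55.0% in probe 13. Over the gene its median was 45.0% in the 30 probes that passed and 55.0% in the 8 that did not.

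Adamts1, an aggrecanase and versicanase, was greater in the apex (300 to 359) than in the middle (220 to 237) and the base (234 to 277). The apex did not overlap the others. The differences were 0.46 ± 0.07 to the middle (adjusted p = 0.0046) and 0.37 ± 0.07 to the base (adjusted p = 0.0023), and with scaling to the spike-in probes the latter turned to -0.05. Adamts4, the other classical aggrecanase, did not pass, with 26.2 to 39.2 in the apex, 28.9 to 38.0 in the middle, then 26.2 to 43.96 in the base (-0.10 ± 0.16). Adamts9 was 1.16-fold greater in the apex than the base (adjusted p = 0.022). Per turn, 2 to 4 of its 28 probes were detected throughout, and 2 passed between apex and base. Its fold is not an exact size.

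Of the 3 procollagen N-proteinases, 2 were greater in the apex than the base. Adamts2, the main enzyme for fibrillar procollagens, gave 212, 231, 246 and 232 in the apex. It gave 155, 150, 173 and 149 in the middle and 143, 111, 140 and 138 in the base. The 3 turns did not overlap, and the apex stood furthest from the others. Apex over base was 0.80 ± 0.09 (1.74-fold, adjusted p = 5.1e-05) and apex over middle 0.56 ± 0.09 (adjusted p = 0.004). Of its 22 probes, 20 passed toward the apex. Probe 1, at the 5′ end, passed toward the base (-0.28, adjusted p = 0.008), and probe 4 did not pass (-0.01). Adamts3, which trims procollagen and activates a growth factor of lymphatic vessels, was greater in the apex than the base (0.48 ± 0.13, adjusted p = 0.013), and Adamts14 did not pass (-0.09 ± 0.12). Adamts3 had 3 to 5 of 21 probes detected throughout per turn.

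Of the other 9 ADAMTS genes, 3 were greater in the apex than the base (Adamts6, Adamts17 and Adamts19). Adamts19 had 3 to 5 of 22 probes detected throughout per turn. Adamts6, a close relative of Adamts10 that acts on microfibrils, gave 41.8, 50.8, 53.1 and 38.7 in the apex. It gave 39.2, 33.8, 34.4 and 26.8 in the middle and 17.9, 17.7, 21.0 and 16.7 in the base. The base lay below both other turns, and apex and middle overlapped. Apex over base was 1.32 ± 0.13 (2.505-fold, adjusted p = 2.8e-05) and middle over base 0.86 ± 0.13 (adjusted p = 0.0016). Only 2 of its 23 probes were well above background on all 4 basal arrays, and 7 on any. Both differences therefore include probes at the floor and are not exact sizes. Apex over middle was 0.46 ± 0.13 (adjusted p = 0.046), and this call was lost in 9 of the 12 fits that left out an array. Of its 23 probes, 16 passed between apex and base. Of the 7 that did not, probes 8 and 22 differed by 0.10 and 0.13 and the other 5 by 0.72 to 0.97 toward the apex.

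At the zinc motif the ADAMTS probes printed above, which share many bases, gave the following readings. The Adamts6 probe gave mean signals of 61.3 in the apex, 52.0 in the middle, then 29.8 in the base (1.04 ± 0.36, adjusted p = 0.044). The Adamts17 probe gave 39.6, 19.5 and 18.6 and did not pass by itself (1.09 ± 0.52, adjusted p = 0.13), though the gene did (0.55 ± 0.09, adjusted p = 0.00058). The Adamts12 probe (-0.19 ± 0.07) and the Adamts10 probe (-0.44 ± 0.27) did not pass, and neither did their genes. In apex, middle and base the Adamts12 probe gave 2048, 2159 and 2333, while the gene averaged 21.4, 23.1 and 21.9. The Adamts17 probe was well above background on 4, 1 and 1 arrays of these turns, and the Adamts10 probe on 2, 1 and 3. Whether these probes read their own gene alone was not tested. Adamts13, which cuts von Willebrand factor, did not pass (-0.05 ± 0.07, 95% interval -0.21 to 0.12).

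The inhibitors did not move together. Timp2, which both blocks Mmp2 and takes part in its activation, was greater in the base. It gave 7155, 7494, 7328 and 7868 in the apex. It gave 6862, 7801, 7697 and 8176 in the middle and 11150, 11510, 10030 and 12630 in the base. The base lay above both other turns, which overlapped fully. Base over apex was 1.51-fold (-0.60 ± 0.08, adjusted p = 0.00014) and base over middle 1.48-fold (adjusted p = 0.0007). All 5 probes passed between apex and base, and the probe over the C-x-C codons, printed above, gave mean signals of 1779, 1783 and 2489 in apex, middle and base.

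Timp3, the inhibitor that binds to matrix and also blocks ADAMTS aggrecanases, ran the other way. It gave 1483, 1611, 1558 and 1673 in the apex. It gave 1245, 1307, 1399 and 1477 in the middle and 1099, 1186, 1295 and 1142 in the base. The apical arrays lay above all others, and middle and base overlapped. Apex over base was 1.34-fold (0.42 ± 0.07, adjusted p = 0.00074), and all 5 probes passed. With scaling to the spike-in probes the Timp3 difference was 0.01 (adjusted p = 0.97).

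Timp1, which is induced in many tissues by injury and growth, gave 162, 174, 173 and 284 in the apex, 176 to 205 in the middle, then 215 to 247 in the base. Apical replicate 4 was above every other array, and the other apical arrays were below every basal array. The difference did not pass (-0.24 ± 0.15, adjusted p = 0.26), and without apical replicate 4 it did (-0.43, adjusted p = 0.0015). Timp4 gave 106, 131, 216 and 181 in the apex, 184 to 227 in the middle, then 190 to 248 in the base. The turns overlapped, and the difference between apex and base did not pass (-0.46 ± 0.19, adjusted p = 0.075). It passed under several alternative settings, given in the closing section.

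The middle turn was compared with each neighbour to see where along the cochlea a difference fell. Between apex and middle 8 members passed, beside 12% of all genes. Of these, 7 were greater in the apex (Mmp2, Mmp16, Mmp23, Adamts1, Adamts2, Adamts6 and Adamts17), 15.9% of members beside 4.42% of all genes, and Mmp25 was greater in the middle, beside 7.61%. Between middle and base 10 members passed, beside 20.9% of all genes. Of these, 9 were greater in the middle (Mmp16, Mmp20, Mmp24, Mmp25, Mmp27, Adamts3, Adamts5, Adamts6 and Adamts20), 20.5% of members beside 11.6% of all genes, and Timp2 was greater in the base, beside 9.23%. The averages of Mmp20 and Mmp27 rest mostly on probes at the floor. Probes above background on no array were 196 of the 605 member probes and 23567 of all 165865. Their medians were 0.226 and 0.213 toward the middle. The part of this shift in the 9 calls was not tested. No member passed the study's rule in either comparison, beside 0.436% of all genes for the first step (0.297% toward the apex and 0.138% toward the middle) and 2.66% for the next (2.2% toward the middle and 0.456% toward the base). By the unadjusted p of limma, 17 and 16 members differed in these steps, beside 32% and 35% of all genes, and none of them by 2-fold. The arrays of apex and middle did not overlap for 8 members in favour of the apex and 3 of the middle, beside 7.3% and 13.5% of all genes. Those of middle and base did not overlap for 8 in favour of the middle and 3 of the base, beside 12.5% and 11.6%. The 2 comparisons share the middle arrays, so they are not independent of each other. Mmp16, Adamts6 and Mmp25 passed in both, 5 members only between apex and middle and 7 only between middle and base. Passing a test in 1 step alone does not show that the steps differ, so the difference of the steps was tested in the same fit. It passed for 2 members, beside 2.01% of all genes. In Mmp23 the apex-to-middle step was larger than the middle-to-base step by 0.96 ± 0.17 (adjusted p = 0.019), and in Mmp25 the steps ran in opposite directions (-1.41 ± 0.22, adjusted p = 0.012), a value that includes probes at the floor. For Adamts5 the same difference was -1.09 ± 0.31 (adjusted p = 0.1).

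**Figure D4:**
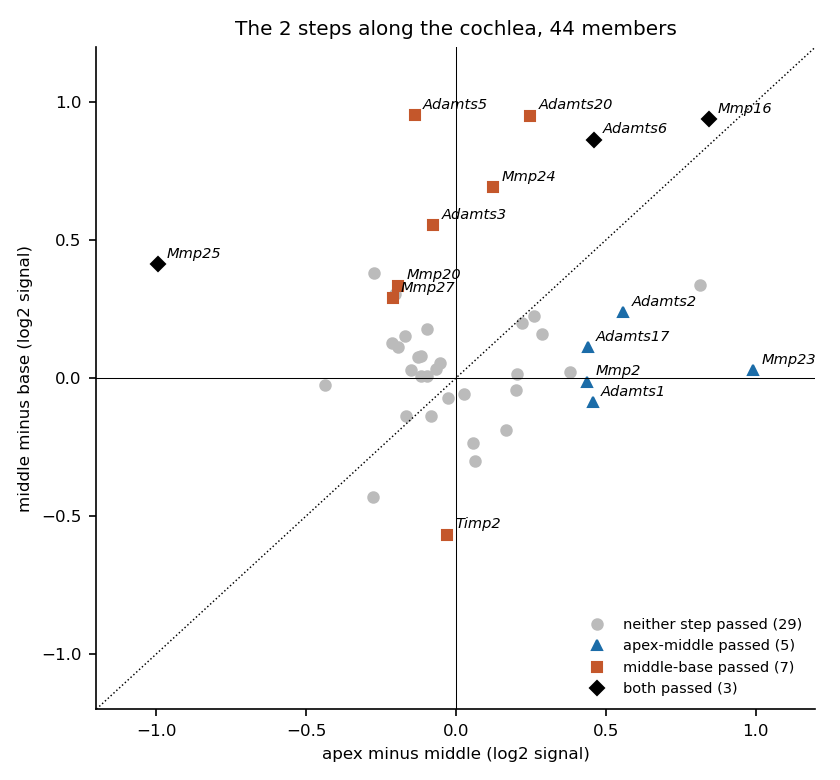
Log2 difference between apex and middle (horizontal) against that between middle and base (vertical) for the 44 members, where the dotted line marks equal steps. Symbols show which comparisons passed in limma, with the number of members in brackets. Mmp16 lies near the dotted line at the upper right, Mmp23 lies on the horizontal axis, and Mmp25 is at the upper left.

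Probe by probe, 165 of the 605 member probes passed between apex and base, beside 34.4% of all probes. Of these, 140 were greater in the apex (23.1% of member probes beside 18% of all probes) and 25 in the base (4.13% beside 16.4%). Between apex and middle 52 passed, beside 5.9% of all probes: 46 were greater in the apex (3.04% of all probes) and 6 in the middle (2.86%). Between middle and base 52 were greater in the middle, beside 7.76%, and 10 in the base, beside 6.02%. Probes of a gene share the same RNA and are not replicates. In Adamts5, Timp2 and Timp3 every probe passed in the same direction. In Mmp16, Mmp24, Adamts6 and Adamts20 probes that did not pass lay among probes that did, and the average over the gene took in both kinds. Where no array of a turn was well above background, the plotted difference is not an exact size.

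**Figure D5:**
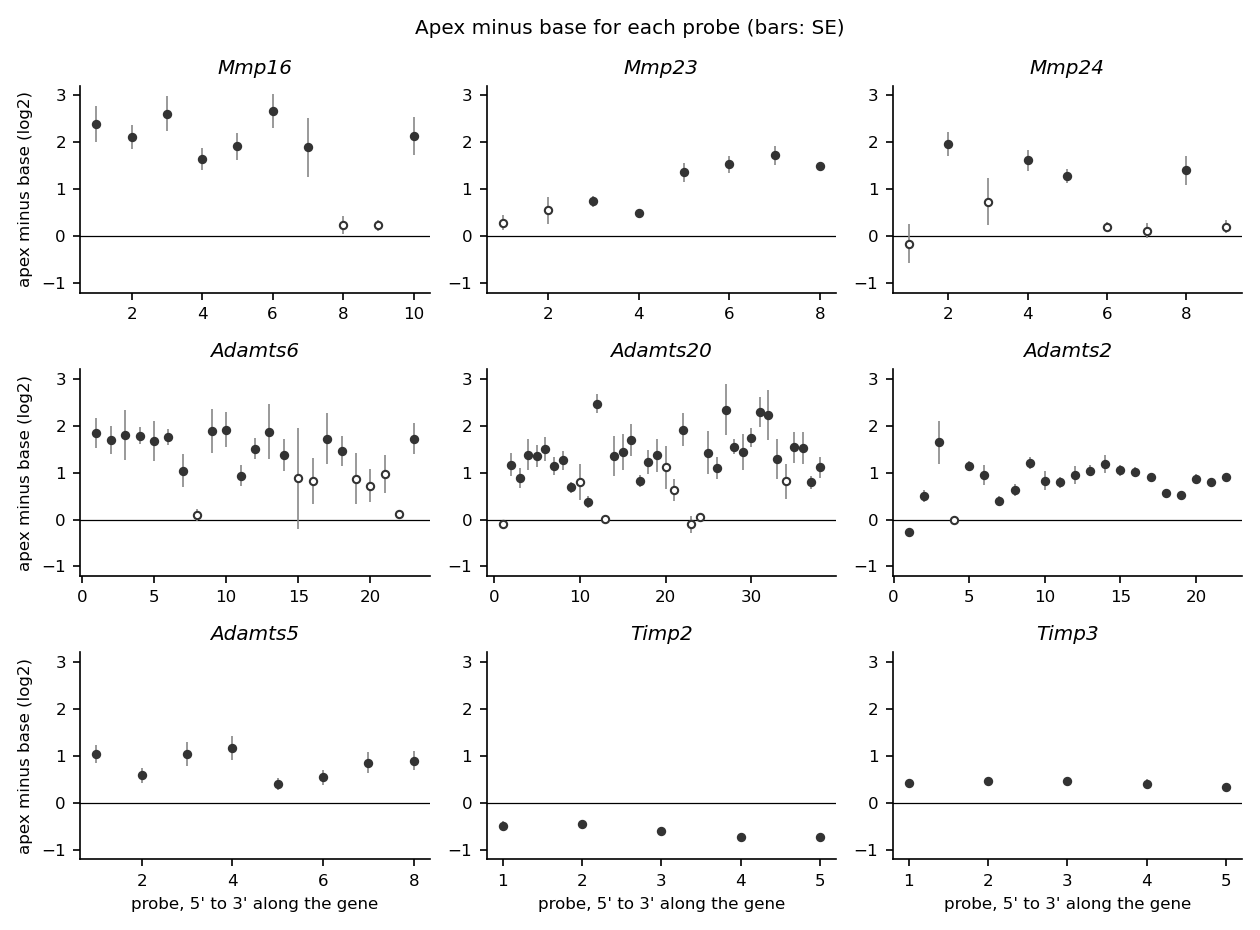
Log2 difference between the apical and basal turns for each probe of 9 members, in order from the 5′ to the 3′ end of the gene (equal spacing). Bars are SE, filled points passed in limma over all probes and open points did not. Probes near 0 interrupt Mmp16, Mmp24, Adamts6 and Adamts20, the difference in Mmp23 is larger in the 3′ probes, and the probes of Timp2 and Timp3 are alike.

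The partners and substrates of these enzymes were taken as a list of 37 genes, of which 34 were measured. Between apex and base, 5 were greater in the apex and 11 in the base, beside 17.6% and 21.6% of all genes, with a median of -0.12 beside -0.04. Acan (aggrecan), the cartilage proteoglycan that Adamts5 and Adamts4 cut, gave 110, 91.9, 177 and 150 in the apex. It gave 175, 203, 244 and 194 in the middle and 863, 667, 832 and 860 in the base. The base lay far above the other turns, with a difference of -2.65 ± 0.19 between apex and base (adjusted p = 2.9e-06), against the direction of Adamts5. Acan also stands in the cartilage marker list, where 4 of 6 genes were greater in the base and 1 in the apex and the summed signal was 1681 to 1862 in the apex, 1738 to 1843 in the middle, then 2669 to 3243 in the base. The related proteoglycans Vcan (-0.15 ± 0.07), Bcan (-0.14 ± 0.13) and Ncan (0.83 ± 0.31, adjusted p = 0.055) did not pass, and Ncan had a high apical replicate 3 (115, the other apical arrays 35.9 to 45.1).

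Serpine2, an inhibitor of plasminogen activators and thrombin, was 1.74-fold greater in the base (adjusted p = 2.7e-05), as Timp2 was. The plasminogen activator Plat did not pass (0.10 ± 0.11). Plau (urokinase) was lower in the apex than in the base (-0.43 ± 0.10, adjusted p = 0.0055) and than in the middle (-0.49 ± 0.10, adjusted p = 0.013). Per turn, 3 to 5 of the 10 Plau probes were detected throughout. Furin, which removes the propeptide of membrane-bound MMPs and ADAMTS proteases and is named here after its values were seen, was greater in the base than in the apex (-0.36 ± 0.06, adjusted p = 0.00086). Reck, a membrane-anchored inhibitor of MMPs, was 1.11-fold greater in the apex (adjusted p = 0.047). Among the genes of the list that passed toward the apex, Adam19 (0.33 ± 0.09, adjusted p = 0.016) and the procollagen C-proteinase Tll1 (0.33 ± 0.09, adjusted p = 0.012) had the largest values. Tll1 had 3 to 5 of 22 probes detected per turn. Bmp1, the other procollagen C-proteinase that passed and detected by all 19 probes, was greater in the base (-0.32 ± 0.08, adjusted p = 0.011). Between apex and middle 1 of the 34 genes was greater in the apex (Adamtsl1, 0.42 ± 0.08) and 6 in the middle, beside 4.42% and 7.61% of all genes. Between middle and base 2 were greater in the middle, then 6 in the base, beside 11.6% and 9.23% of all genes.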

How the data were processed

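RNA of 4 samples per cochlear turn was hybridised to 1-colour Agilent mouse exon arrays. The deposited values were spot intensities, the processed signal of Agilent Feature Extraction 10.7.3.1 per the file headers, which the authors' software had corrected for background but not scaled between arrays. Arrays were scaled to a common 75th percentile of non-control probes and values were taken to log2. Probes with an outlier spot on any array were left out (119 probes), and spots, probes and genes were averaged on the log2 scale. All 12 arrays entered limma 3.58.1 in R 4.3.3, with Benjamini-Hochberg adjustment over 19505 genes, or over 165865 probes. The fit was tested on simulated data. Standard errors are those of limma. The number of arrays limits the precision. The p-values set a difference between turns against the spread of arrays within a turn. That spread holds no difference between slides, since each turn lay on a slide of its own. The study described the arrays of a turn as coming from separate mice, and the labels name no animal. Gene names are those of the array design.

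Named with values were members that passed with at least 1.5-fold in any comparison, all TIMPs and members of known role. From the gene lists, the rule took the 2 largest changes in each direction and genes bearing on a named member. Other members named singly (Mmp15, Mmp17, Mmp19, Mmp20, Mmp27, Adamts3, Adamts9, Adamts10, Adamts12, Adamts14, Adamts17 and Adamts19), and the genes S100a8, Ibsp, Ltf, Camp, Bglap, Acp5, Ctsk, Oscar, Calcr, Ncan and Bmp1, were chosen after their values were seen. The members and lists were chosen with earlier results of these data known. Alternatives covered scaling, background correction, dim probes, an added signal, the median of probes, each array left out, a replicate block and other limma settings. The series value table held the same signals.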

Additional observations from a re-analysis of the deposited data

Results flagged for a closer look

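In 66 groups of 4 arrays, taken over 22 members and 3 turns, 3 held an array far from the others, and chance marks about 1 group in 20. Basal replicate 2 gave 111.3 for Adamts2, where the nearest array gave 138.2. Apical replicate 4 gave 284.2 for Timp1, where the nearest gave 173.8, and this is the array that was also highest for Mmp8, Mmp9 and Mmp13. Basal replicate 4 gave 277.1 for Adamts1, where the nearest gave 239.3.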

How the results depend on the processing

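Between apex and base, 14 members were greater in the apex and 4 in the base, and 4 passed the study's rule. Quantile normalization gave 10 in the base and 2 by the study's rule, and for the other steps 1 by the study's rule between apex and middle and 4 greater in the base than in the middle, with 47 probes greater in the base than in the apex. Scaling to the median gave 2 greater in the middle than in the apex, 1 by the study's rule between them, 2 greater in the base than in the middle and 45 probes greater in the base than in the apex. Scaling to the spike-in probes gave 6 and 24 between apex and base (probes 73 and 195), 4 and 12 between apex and middle with 1 by the study's rule, and 5 and 9 between middle and base, and it turned Adamts1 between apex and base to -0.049. Normexp background correction gave 0 by the study's rule between apex and base and 4 greater in the apex than in the middle. With only probes well above background, 2 were greater in the middle than in the apex, 1 passed the study's rule there, 2 were greater in the base than in the middle and 2 passed the study's rule there. With 16 added to each signal 1 passed the study's rule between apex and base, and with the median of a gene's probes 7, 1 and 3 passed it between apex and base, apex and middle, and middle and base. With only the arrays of the turns compared, 2 were greater in the base than in the middle. The causes were not tested.

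Leaving out each array gave, between apex and base, 13 to 15 in the apex, 4 to 5 in the base, 3 to 5 by the study's rule, and 121 to 140 and 19 to 28 probes. Between apex and middle it gave 6 to 8, 1 to 4 (4 without middle replicate 3) and 0 to 2 (2 without apical replicate 3 or 4). Between middle and base it gave 6 to 10 (6 without middle replicate 1, 2 or 4), 1 to 2 (2 without apical replicate 4) and 0 to 3 (3 without basal replicate 3). Timp4 passed between apex and base with quantile normalization (-0.57, adjusted p = 0.03), with scaling to the median (-0.58) and without apical replicate 3 (-0.63). With the replicate number as a block the counts were 14 and 5, 8 and 1, and 9 and 1. The numbers were not taken to pair the arrays, since the labels do not tie them to animals. Of 12 same-number correlations, 6 were over 0.1 (mean 0.0949, and -0.0313 for different numbers). The best match of 8 of 12 arrays was an array of their own number. These values do not settle whether arrays of the same number share an animal. Over single members, 677 values under the other settings kept their side of the threshold, 30 gained and 18 lost a call. Signal over background is a limit, since at most 47.6% of their probes were well above it in a turn.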
